A study of Homo sapiens and Mus musculus with 4 samples.

Results

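The genes described here encode the enzymes that write, maintain and remove DNA methylation and the core of Polycomb repressive complex 2: DNMT1, UHRF1, DNMT3A, DNMT3B, TET1, TET2, TET3, EZH1, EZH2 and SUZ12. They were chosen by symbol, in human and mouse alike. Symbols were attached by gene identifier, and 19 of the 60736 genes in the table were matched to one of the 10 symbols. These were 9 of 32738 human and 10 of 27998 mouse genes. Human UHRF1 was not analysed here. The levels are FPKM, that is, fragments divided by the length of the gene and by the size of the library, from bulk RNA sequencing of 4 established cell lines, made by the study as a reference for single-cell methods. No line was given a treatment or an engineered allele in the labels.

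Jurkat is a human T-cell leukemia line of CD4 type, and TALL104 is a human T-cell leukemia line of CD8 type maintained with interleukin-2. The study describes TALL104 cells as smaller than those of the other lines, slow to grow and more difficult to culture, with reduced viability. Of the mouse lines, EL4 derives from a T-cell lymphoma and IVA12 is a B-cell hybridoma, a fusion of a B cell with a myeloma cell. Each line was represented by 1 library, so a difference between lines includes any difference between cultures, the spread is unknown and nothing was tested. In bulk RNA, fewer cells that hold a transcript and less of it per cell cannot be told apart. FPKM is relative to the library and gives no amount per cell. Library totals, recovered from the steps between FPKM values, lay between 25286728 and 34783047 reads. Of 8 T-cell genes, 8 reached 1 FPKM in Jurkat, TALL104 and EL4, and 2 in IVA12. In IVA12, 5 of 8 B-cell and plasma-cell genes reached 1 FPKM, with a summed level of 2699 FPKM against 39.3 to 108 FPKM in the other lines, while Pax5, a defining B-cell gene, was at 0.156 FPKM. Summed over 6 myeloid genes (5 matched in mouse), levels were 1.18 to 3.07 FPKM in the T-cell lines and 22.7 FPKM in IVA12, of which Cd68 made up 22.5 FPKM.

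As background, DNA methylation is copied onto new DNA strands by DNMT1, which UHRF1 brings to sites where only the parent strand is methylated, whereas DNMT3A and DNMT3B methylate unmodified sites. The TET enzymes oxidize 5-methylcytosine, the first step of its removal. Polycomb repressive complex 2 (PRC2) methylates histone H3 at lysine 27 through EZH2 or its paralog EZH1, held in an active complex by SUZ12 and EED, and in lymphocytes EZH2 is known to go with proliferation and EZH1 with rest.

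The human promoter sequences of these genes in RefSeq (GRCh38.p14, 250 bases before to 50 after each listed start) were searched for the letters of the E2F motif, which binds factors that drive genes of DNA replication. The motif was searched after the levels were known, as TTTCCCGC, TTTCGCGC, TTTGCCGC and TTTGGCGC on both strands. At least 1 of these was found in 1164 of 35116 promoters (3.31%). Among the 22 promoters listed for the 10 genes, 6 held a match, 1 each and none overlapping another, and these belonged to 5 genes: DNMT1, UHRF1, EZH1, EZH2 and SUZ12. No match was found in the windows of DNMT3A, DNMT3B, TET1, TET2 or TET3. Several starts of 1 gene overlap, so the 22 windows are not independent of each other. Each sequence below is 60 bases, 5′ to 3′ on the strand of the gene, with the match in capitals. They are shown for the 4 genes that hold a match and have human levels given below. The UHRF1 matches are not printed, since human UHRF1 was not analysed. Whether a match bears on the levels was not tested.
DNMT1 (chr19:10194944-10195003, minus strand): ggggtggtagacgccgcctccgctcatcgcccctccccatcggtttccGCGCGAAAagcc
EZH2 (chr7:148884282-148884341, minus strand): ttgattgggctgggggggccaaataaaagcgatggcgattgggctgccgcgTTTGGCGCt
SUZ12 (chr17:31936792-31936851, plus strand): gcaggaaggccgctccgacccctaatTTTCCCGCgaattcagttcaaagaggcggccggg
EZH1 (chr17:42745122-42745181, minus strand): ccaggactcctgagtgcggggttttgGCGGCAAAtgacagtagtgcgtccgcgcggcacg

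In these windows the match began at position -2 from the start in DNMT1, at 2 in EZH2, at -189 in SUZ12 and at -115 in EZH1, with 1 as the first base of the gene. In DNMT1 and EZH1 the capitals are the reverse complement of a motif, and in EZH2 and SUZ12 the motif itself. The 22 windows also differed in CpG dinucleotides, the sites that DNA methylation acts on. They ranged from 3 in the window listed for DNMT3B to 46 in windows of EZH2, DNMT3A and UHRF1. Starts that are not listed were not searched, so a listed window, as for DNMT3B, need not be the main promoter of its gene. Their median was 30, against a median of 14 over all promoters. Every motif searched holds a CpG, and the share of promoters with a match was not adjusted for CpG content. A match is a description of the letters and shows no binding. E2F1, the gene of 1 of the factors that bind this motif, is given below with the cell-cycle genes. Other E2F genes are not given here.

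The first comparison set Jurkat against TALL104. All 9 human genes were detected, at 1 FPKM or more, in both lines. Of these, 6 were higher in Jurkat by more than 1.5-fold on FPKM + 1, 1 was higher in TALL104 and 2 lay within 1.5-fold. Over 12214 human genes at 1 FPKM or more in either line, 34.2% were higher in Jurkat and 28.4% higher in TALL104. The median log2 ratio of Jurkat over TALL104 was 0.88 over the 9 genes and 0.10 over all genes compared. The gene that went the other way was EZH1.

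**Figure D1:**
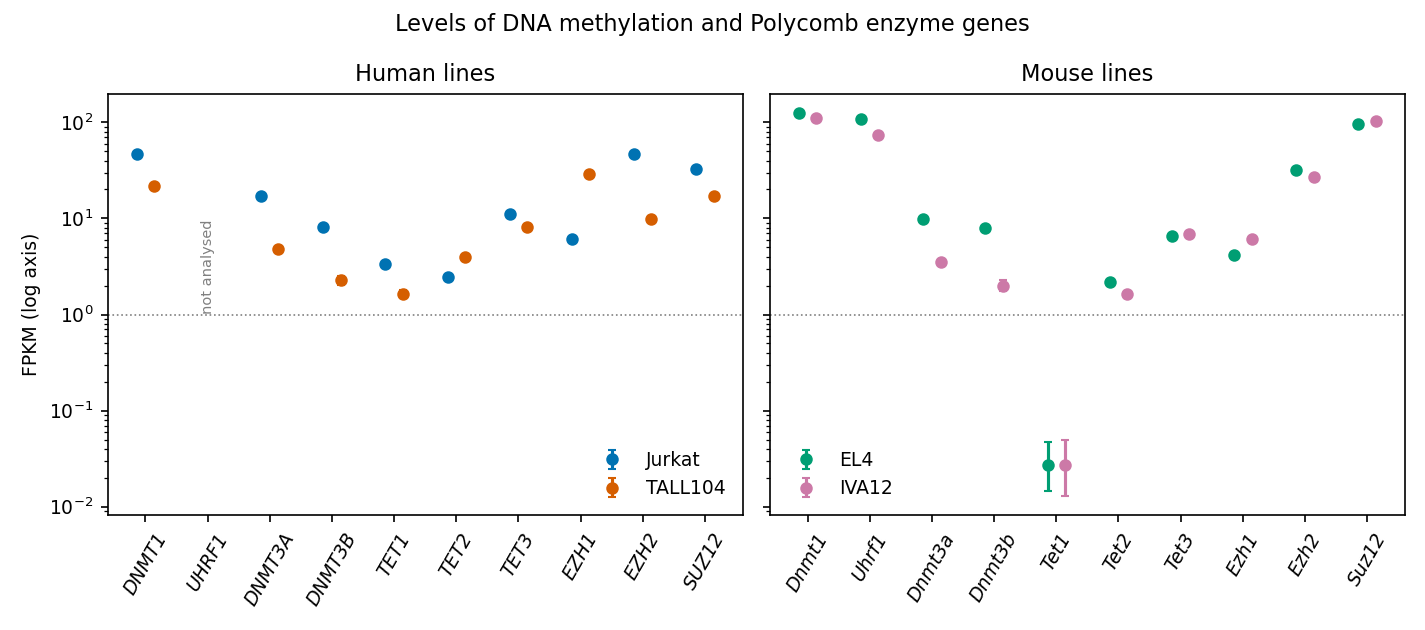
Level of each gene in FPKM (log axis) in the human lines (left) and the mouse lines (right), 1 point per library with the 95% counting interval, and a dotted line at 1 FPKM. EZH1 is the highest point of TALL104 and the 1 gene over 1.5-fold above Jurkat on FPKM + 1, and mouse Tet1 lies far below the other genes in both mouse lines.

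DNMT1, the maintenance methyltransferase, was among the most abundant of the genes. Human DNMT1 (ENSG00000130816, hg19 chromosome 19, 10244018 to 10341962, a span that also holds part of S1PR2) was at 46.8 FPKM in Jurkat (95% counting interval 46.1 to 47.5) and at 21.5 FPKM in TALL104 (21 to 22.1). These levels exceeded those of 91.9% and 80.3% of the human genes at 1 FPKM or more in each line. Jurkat was higher by 2.17-fold (2.11 to 2.24), a log2 ratio of 1.08 on FPKM + 1. All intervals cover the counting of reads only, not differences between cultures.

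DNMT3A and DNMT3B, the de novo methyltransferases, were lower than DNMT1 in every line and differed more between the human lines. DNMT3A (ENSG00000119772, hg19 chromosome 2, 25450724 to 25565459) was at 17.1 FPKM in Jurkat (16.6 to 17.6) and 4.75 FPKM in TALL104 (4.45 to 5.07), a 3.6-fold difference (3.35 to 3.87). DNMT3B (ENSG00000088305, hg19 chromosome 20, 31350191 to 31397165) was at 8.08 FPKM (7.65 to 8.53) and 2.26 FPKM (2.01 to 2.54), a 3.57-fold difference (3.14 to 4.06). The balance between them was alike, with DNMT3A over DNMT3B at 2.12 in Jurkat (1.99 to 2.25) and 2.10 in TALL104 (1.84 to 2.40), and these intervals overlapped. DNMT1 over DNMT3A was 2.74 in Jurkat and 4.53 in TALL104, so TALL104 had less of all 3 methyltransferases and relatively more DNMT1.

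The TET dioxygenases were expressed at low to moderate levels. TET3 (ENSG00000187605, hg19 chromosome 2, 74212037 to 74335303) was the highest of them, at 11.0 FPKM in Jurkat (10.5 to 11.6) and 8.19 FPKM in TALL104 (7.66 to 8.75), within 1.5-fold. TET1 (ENSG00000138336, hg19 chromosome 10, 70320094 to 70454244) was at 3.36 FPKM (3.16 to 3.56) and 1.62 FPKM (1.47 to 1.78), and was 2.07-fold higher in Jurkat (1.85 to 2.32). TET2 (ENSG00000168769, hg19 chromosome 4, 106067032 to 106200973), a gene often mutated in lymphoid and myeloid malignancy, was at 2.46 FPKM (2.33 to 2.59) and 3.98 FPKM (3.80 to 4.17). Its FPKM ratio of Jurkat over TALL104 was 0.617 (0.575 to 0.661), that is, higher in TALL104, but the log2 ratio of -0.53 on FPKM + 1 stayed within 1.5-fold. TET2 was called higher in TALL104 with a pseudocount of 0.1 or 0.01 FPKM, and with scaling by the median ratio or to equal totals without mitochondrially encoded genes. The order of TET1 and TET2 was opposite in these lines: TET2 over TET1 was 0.732 in Jurkat (0.676 to 0.793) and 2.45 in TALL104 (2.21 to 2.73).

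The catalytic subunits of PRC2 showed the largest differences among the 9 genes, in opposite directions. EZH2 (ENSG00000106462, hg19 chromosome 7, 148504349 to 148581413) was at 47.3 FPKM in Jurkat (46.2 to 48.4) and 9.92 FPKM in TALL104 (9.39 to 10.5), 4.77-fold higher in Jurkat (4.49 to 5.06; log2 ratio 2.14). EZH1 (ENSG00000108799, hg19 chromosome 17, 40852293 to 40897067) was at 6.11 FPKM in Jurkat (5.81 to 6.43) and 28.9 FPKM in TALL104 (28.1 to 29.6), with a ratio of Jurkat over TALL104 of 0.212 (0.200 to 0.224; log2 ratio -2.07). EZH1 was thus the highest of the 9 genes in TALL104, above DNMT1 and SUZ12, and the seventh in Jurkat. Within Jurkat EZH2 exceeded EZH1 by 7.74-fold (7.32 to 8.18), whereas within TALL104 EZH1 exceeded EZH2 by 2.91-fold (2.74 to 3.09). The balance between the paralogs therefore differed by 22.5-fold between the human lines, and it compares genes within a library and so does not change with a scaling of the library. The summed level of both was 53.4 FPKM in Jurkat and 38.8 FPKM in TALL104, a smaller difference than that of either gene.

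SUZ12, the subunit without which the PRC2 core does not hold together, was higher in Jurkat, like EZH2 and unlike EZH1. SUZ12 (ENSG00000178691, hg19 chromosome 17, 30264026 to 30328057) was at 32.7 FPKM in Jurkat (32.0 to 33.5) and 17.3 FPKM in TALL104 (16.7 to 17.9), 1.89-fold higher in Jurkat (1.81 to 1.97). SUZ12 over EED was 4.38 in Jurkat (4.16 to 4.61) and 4.05 in TALL104 (3.76 to 4.38), close in both lines. Within Jurkat, EZH2 and DNMT1 were neighbors at the top of the order and their intervals overlapped; in no other pair of neighbors, in any of the 4 lines, did they.

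**Figure D2:**
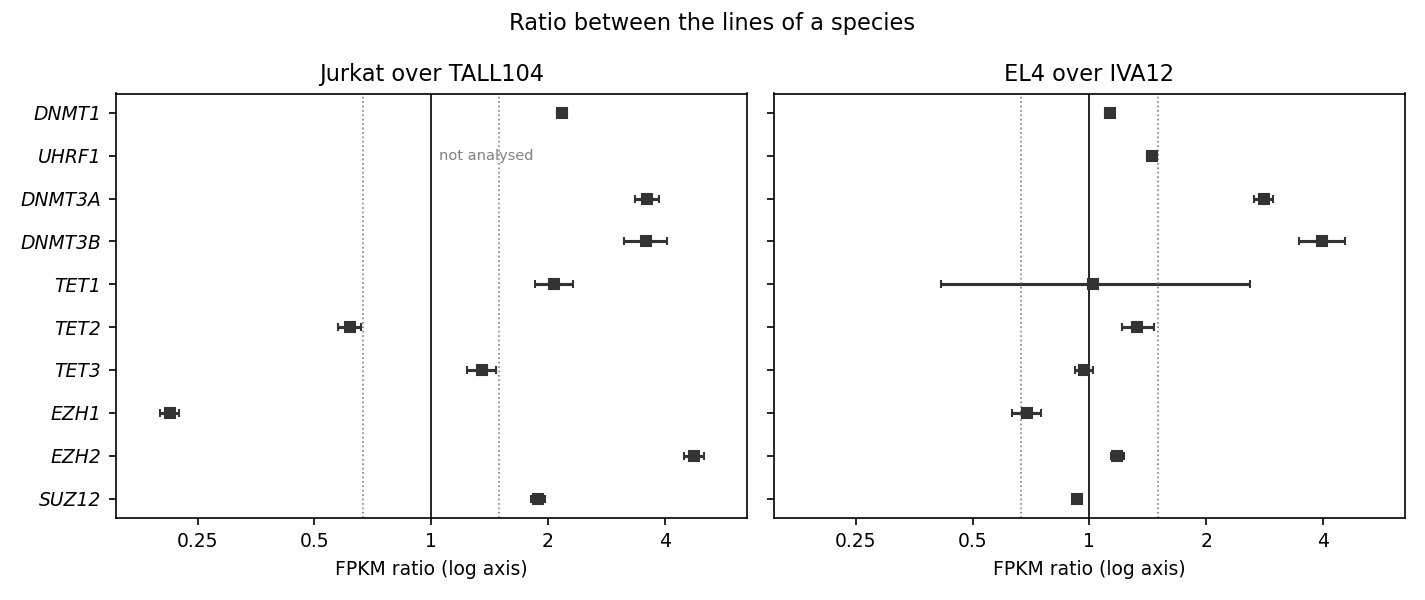
FPKM ratio (log axis) of Jurkat over TALL104 (left) and of EL4 over IVA12 (right) for each gene, with 95% counting intervals, a solid line at 1 and dotted lines at 1.5-fold in each direction. EZH1 and EZH2 lie at the opposite ends of the human panel, whereas in the mouse panel only Dnmt3a and Dnmt3b lie beyond the dotted lines and Tet1, with 13 and 10 reads, has the widest interval.

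The second comparison set EL4 against IVA12. Here 9 of the 10 genes were detected in both lines, and Tet1 in neither. Of these 9, 2 were higher in EL4 by more than 1.5-fold, 0 were higher in IVA12 and 7 lay within 1.5-fold. Over 10801 mouse genes at 1 FPKM or more in either line, 23.8% were higher in EL4 and 26.5% higher in IVA12. The median log2 ratio of EL4 over IVA12 was 0.23 over the 9 genes and -0.04 over all genes compared. The 2 genes that differed were the de novo methyltransferases.

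Dnmt3a (ENSMUSG00000020661, mm10 chromosome 12, 3806007 to 3914443) was at 9.92 FPKM in EL4 (9.65 to 10.2) and 3.52 FPKM in IVA12 (3.34 to 3.71), a 2.82-fold difference (2.66 to 2.98). Dnmt3b (ENSMUSG00000027478, mm10 chromosome 2, 153649450 to 153687730) was at 7.94 FPKM (7.51 to 8.38) and 2.0 FPKM (1.76 to 2.26), a 3.97-fold difference (3.47 to 4.56). The T-cell line was the higher for both genes, and Dnmt3a over Dnmt3b was 1.25 in EL4 (1.18 to 1.33) and 1.76 in IVA12 (1.54 to 2.02).

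The maintenance pair was abundant in both mouse lines. Dnmt1 (ENSMUSG00000004099, mm10 chromosome 9, 20907209 to 20959888) was at 124 FPKM in EL4 (122 to 126) and 110.1 FPKM in IVA12 (108 to 112), above 96.1% and 95.6% of the mouse genes at 1 FPKM or more. Uhrf1 (ENSMUSG00000001228, mm10 chromosome 17, 56303321 to 56323486) was at 108 FPKM (106 to 109.6) and 74.3 FPKM (72.7 to 75.9), 1.45-fold higher in EL4 (1.41 to 1.49) and within 1.5-fold. Dnmt1 thus exceeded its partner by 1.15-fold in EL4 and 1.48-fold in IVA12. It exceeded Dnmt3a by far more, 12.5-fold in EL4 (12.1 to 12.9) and 31.3-fold in IVA12 (29.6 to 33.0).

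Tet1 was near absent from both mouse lines. Tet1 (ENSMUSG00000047146, mm10 chromosome 10, 62804570 to 62908996) was at 0.0275 FPKM in EL4 (0.0146 to 0.0470) from 13 reads, and at 0.0269 FPKM in IVA12 (0.0129 to 0.0494) from 10 reads, so no difference between these lines was detectable at this depth. Tet2 (ENSMUSG00000040943, mm10 chromosome 3, 133463679 to 133545139) was at 2.16 FPKM (2.04 to 2.29) and 1.62 FPKM (1.5 to 1.75). Tet3 (ENSMUSG00000034832, mm10 chromosome 6, 83362373 to 83459084) was at 6.62 FPKM (6.40 to 6.84) and 6.84 FPKM (6.59 to 7.10), with a ratio of 0.967 (0.920 to 1.02). TET3 was the highest TET gene in all 4 lines and made up 65.5% (Jurkat), 59.4% (TALL104), 75.1% (EL4) and 80.6% (IVA12) of the summed TET level. TET1 made up 19.9% and 11.8% in the human lines and 0.312% and 0.317% in the mouse lines.

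**Figure D3:**
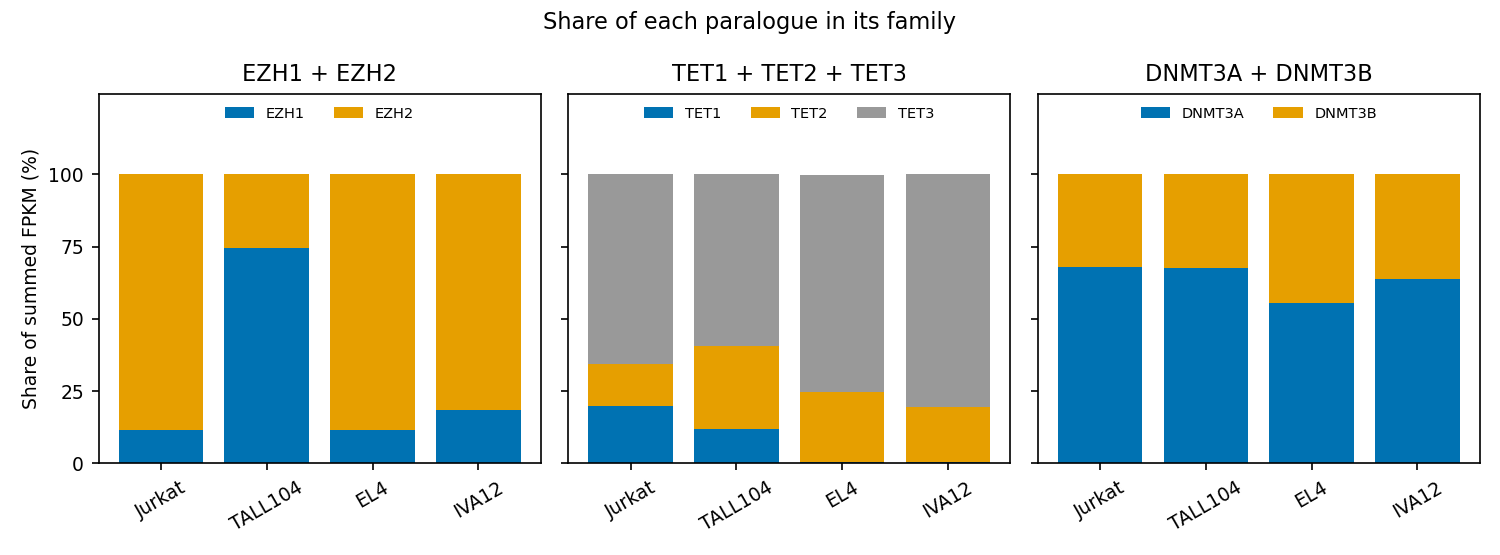
Share (%) of each paralog in the summed FPKM of its family in the 4 libraries, for EZH1 and EZH2 (left), the TET genes (middle) and DNMT3A and DNMT3B (right). EZH1 holds 74.4% of its family in TALL104 and 11.4% to 18.6% in the other lines, while TET3 holds most of the TET sum in every line.

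The PRC2 genes Ezh1, Ezh2 and Suz12 each lay within 1.5-fold between the mouse lines. Ezh2 (ENSMUSG00000029687, mm10 chromosome 6, 47530139 to 47595341) was at 31.7 FPKM in EL4 (30.9 to 32.4) and 26.8 FPKM in IVA12 (26.0 to 27.6). Ezh1 (ENSMUSG00000006920, mm10 chromosome 11, 101191115 to 101226463) was at 4.21 FPKM (3.95 to 4.48) and 6.11 FPKM (5.76 to 6.47), with a ratio of EL4 over IVA12 of 0.689 (0.633 to 0.751), within 1.5-fold on FPKM + 1. EZH2 exceeded EZH1 by 7.52-fold in EL4 (7.04 to 8.05) and 4.39-fold in IVA12 (4.11 to 4.69), a balance that differed by 1.71-fold. EZH1 accounted for 11.4% of the summed EZH1 and EZH2 level in Jurkat, 11.7% in EL4, 18.6% in IVA12 and 74.4% in TALL104. Suz12 (ENSMUSG00000017548, mm10 chromosome 11, 79993106 to 80034123) was at 95.1 FPKM (93.6 to 96.6) and 102 FPKM (101 to 104), above Ezh2 in both lines. SUZ12 also stood above EZH2 in TALL104, and below it in Jurkat alone.

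The partner genes of PRC2 in the human lines mostly stood higher in Jurkat, as SUZ12 did. Of 8 partner genes, 6 were higher in Jurkat, 1 was higher in TALL104 and 1 lay within 1.5-fold, with a median log2 ratio of 0.90. EED, which reads the mark that PRC2 makes, was at 7.47 FPKM in Jurkat and 4.27 FPKM in TALL104. The histone chaperone RBBP4 was at 81.6 and 26.7 FPKM, and its paralog RBBP7 at 32.2 and 15.8 FPKM. Among the accessory subunits, which direct PRC2 to its sites, MTF2 was at 25.7 and 10.6 FPKM. PHF1, of the same family as MTF2, was the 1 partner higher in TALL104, at 6.68 FPKM in Jurkat and 18.7 FPKM in TALL104.

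In mouse the PRC2 partners were split. Rbbp7 was higher in EL4, at 304 against 67.6 FPKM. By contrast, 3 of the 8 were higher in IVA12 and 4 lay within 1.5-fold. Eed was at 17.5 FPKM in EL4 and 38.8 FPKM in IVA12, so that Suz12 over Eed was 5.45 in EL4 (5.21 to 5.70) and 2.64 in IVA12 (2.54 to 2.74). Jarid2 and Aebp2, the cofactors of one form of PRC2, had 9.76 and 22.4 FPKM in IVA12 against 1.27 and 9.31 FPKM in EL4. Rbbp4 lay within 1.5-fold, at 47.0 and 36.5 FPKM.

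PRC1, the complex that places ubiquitin on histone H2A and compacts chromatin, was mixed in both species. Of 20 human subunits, with PCGF2 not matched, 8 were higher in Jurkat, 3 were higher in TALL104 and 9 lay within 1.5-fold. CBX2 and CBX7 are alternative subunits that bind the PRC2 mark. CBX2 was at 14.1 FPKM in Jurkat and 0.645 FPKM in TALL104, and CBX7 at 0.867 and 4.76 FPKM, so the higher of this pair was CBX2 in Jurkat and CBX7 in TALL104. PCGF6, a subunit of variant PRC1, was at 10.2 and 3.77 FPKM, and the Polyhomeotic gene PHC3 at 5.61 and 14.5 FPKM. Of 21 mouse subunits, 6 were higher in EL4, 3 were higher in IVA12 and 12 lay within 1.5-fold. Phc1 and Phc3 were at 6.38 and 3.45 FPKM in EL4 and at 1.89 and 1.31 FPKM in IVA12. Cbx2 was higher in the hybridoma, at 8.98 FPKM against 3.55 FPKM in EL4.

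Of 6 genes that remove Polycomb marks, 1 human gene was higher in Jurkat, 2 were higher in TALL104 and 3 lay within 1.5-fold. BAP1, which takes ubiquitin off histone H2A, was at 47.5 FPKM in Jurkat and 25.8 FPKM in TALL104. KDM6A, a demethylase of histone H3 lysine 27, was at 5.70 and 13.3 FPKM, and ASXL2, a partner of BAP1, at 7.91 and 13.2 FPKM. In mouse, 1 of the 6 differed, Usp16, another H2A deubiquitinase, at 8.28 FPKM in EL4 and 19.5 FPKM in IVA12.

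Among 15 partners and readers of DNA methylation, 13 reached 1 FPKM in either human line, of which 6 were higher in Jurkat, 2 were higher in TALL104 and 5 lay within 1.5-fold. CDCA7 and HELLS form a chromatin remodeler needed for DNA methylation. CDCA7 was at 83.1 FPKM in Jurkat and 5.98 FPKM in TALL104, and HELLS at 13.6 and 1.84 FPKM. ZBTB4, which binds methylated DNA, was higher in TALL104, at 17.7 FPKM there against 4.80 FPKM in Jurkat. DNMT3L, the inactive cofactor of the de novo enzymes in germ cells, was listed at 0 in all 4 libraries.

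In mouse, 14 of the 15 reached 1 FPKM, and 2 were higher in EL4, 1 was higher in IVA12 and 11 lay within 1.5-fold. Tdg, the glycosylase that excises the oxidized bases made by TET enzymes, was at 19.2 FPKM in EL4 and 4.66 FPKM in IVA12. Cdca7 was at 82.8 and 42.8 FPKM, and Zbtb38, another reader of methylated DNA, at 1.95 and 9.0 FPKM. Hells lay within 1.5-fold, at 49.0 and 50.7 FPKM.

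Cofactor supply was represented by 4 genes: MAT2A, which makes S-adenosylmethionine, AHCY, which clears its product after methyl transfer, and IDH1 and IDH2, which make 2-oxoglutarate, the cosubstrate of TET enzymes. In human, 3 of the 4 were higher in Jurkat and 0 were higher in TALL104. AHCY was at 61.8 FPKM in Jurkat and 12.2 FPKM in TALL104, and IDH2 at 152 and 32.1 FPKM. In mouse, 1 of the 4 differed. Idh2 had 0 reads in EL4 and 3888 reads in IVA12, where it was at 59.4 FPKM. The IVA12 level was 1648-fold higher when EL4 is set at a floor of 3 reads for its library. The 95% counting interval of the ratio, which allows for more reads than this floor, reached down to 1339-fold. Idh1 lay within 1.5-fold in both species.

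**Figure D4:**
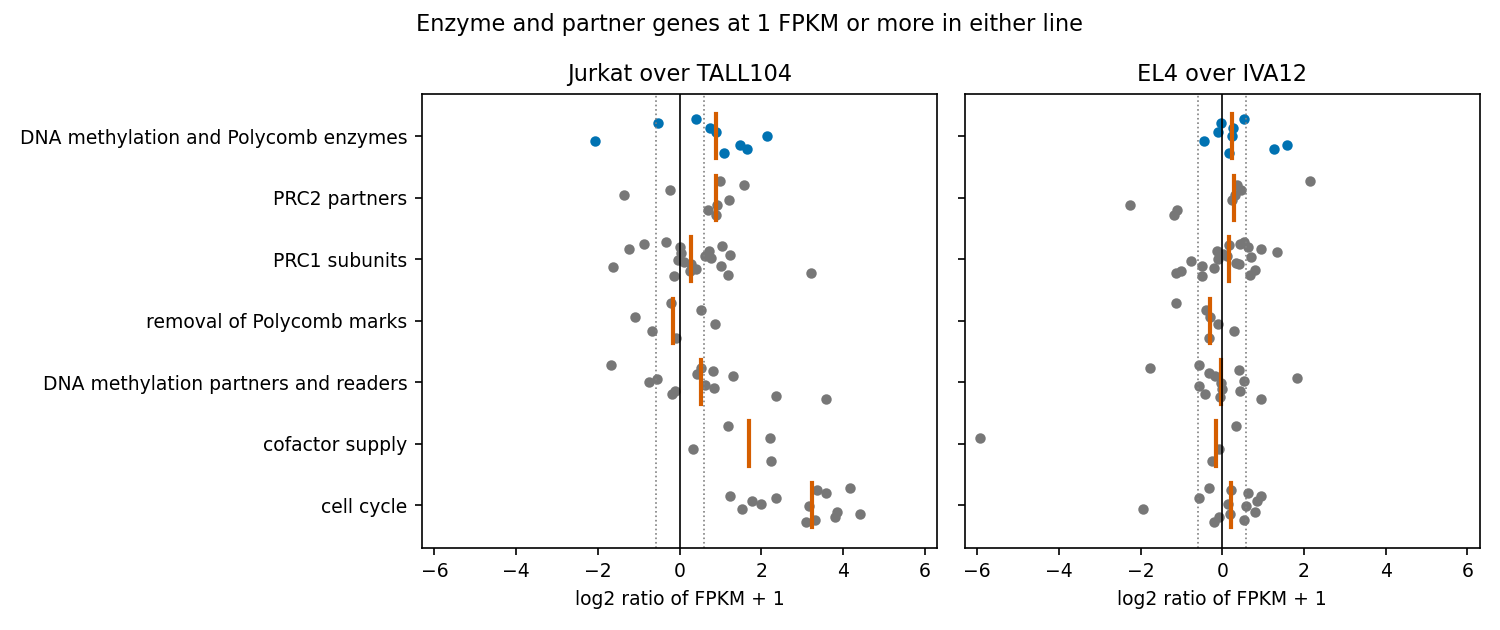
Log2 ratio of FPKM + 1 for Jurkat over TALL104 (left) and EL4 over IVA12 (right), 1 point per gene at 1 FPKM or more in either line, with the median of each list as a vertical bar and dotted lines at 1.5-fold. All 14 cell-cycle genes lie to the right in the human panel, with a median of 3.23, and about zero in the mouse panel, with a median of 0.21 and E2f1 as the point farthest to the left.

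Over the PRC2, PRC1, mark-removal, DNA methylation and cofactor lists together, 24 of 51 human genes at 1 FPKM or more were higher in Jurkat, 8 were higher in TALL104 and 19 lay within 1.5-fold. In mouse the counts were 9 of 53 higher in EL4, 9 higher in IVA12 and 35 within 1.5-fold. The human share higher in Jurkat stood above the 34.2% of all genes, and the share higher in TALL104 below the 28.4%. Both mouse shares stood below the background of their pair. These backgrounds also hold genes that reach 1 FPKM in 1 line only, which raises the share called. Of 9465 human genes at 1 FPKM in both lines, 2900 were higher in Jurkat and 2229 in TALL104. Of 8604 such mouse genes, 1635 were higher in EL4 and 1749 in IVA12. With this filter, 30 human and 17 mouse partner genes were called different.

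Cell-cycle genes moved with the human comparison. All 14 were higher in Jurkat, with a summed level of 1463 FPKM in Jurkat and 223 FPKM in TALL104 and a median log2 ratio of 3.23. CCNB1, the mitotic cyclin, was at 116 and 4.51 FPKM, TYMS, which makes thymidylate for DNA synthesis, at 267 and 13.9 FPKM, and E2F1 at 25.4 and 8.10 FPKM. In mouse the summed levels were 1457 FPKM in EL4 against 1177 FPKM in IVA12, and 4 of the 14 were higher in EL4, 1 was higher in IVA12 and 9 lay within 1.5-fold. Pcna and Mcm5, of the replication fork, were at 236 and 162 FPKM in EL4 and at 122 and 89.3 FPKM in IVA12, and E2f1 was at 11.7 and 47.6 FPKM. The part of proliferation in the levels of the enzymes was not tested. In each species the lines also differ in more than their growth, and with 1 library per line these differences cannot be told apart.

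For each enzyme gene, the gene with the most similar levels over the 4 libraries was found among 6927 genes at 1 FPKM or more in all of them, as the smallest Euclidean distance on log2(FPKM + 1). With 6927 candidates and 4 values per gene, nearness describes levels and shows no shared function. The nearest to EZH2 was CKAP2, at a distance of 0.29. CKAP2 was at 43.2 and 11.6 FPKM in Jurkat and TALL104 and at 30.8 and 23.8 FPKM in the mouse lines. The nearest to EZH1 was TMC6 (0.28), with 5.51, 24.4, 4.49 and 6.18 FPKM. DNMT1 was nearest to GOT2 (0.37), DNMT3A to EIF2AK4 (0.58), DNMT3B to KPTN (0.37), TET2 to LTO1 (0.22), TET3 to R3HCC1 (0.17) and SUZ12 to NDUFA4 (0.17). The nearest to TET1 was ST7L at a distance of 1.66, a loose likeness, since the candidates had to reach 1 FPKM in mouse and Tet1 did not. Levels of human and mouse genes stand side by side here and depend on the gene lengths used in each species.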

How the data were processed

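The authors made 1 stranded messenger RNA library per line (TruSeq Stranded mRNA), aligned paired reads with STAR 2.5.1b to a combined hg19 and mm10 reference distributed with Cell Ranger 1.2.0, and counted with featureCounts 1.6.3. The deposited values are FPKM. The gene lengths, the handling of multiply aligned reads and the strand setting are not given in the sources used here. The annotation lists processed or unprocessed pseudogenes for DNMT3A, TET1, EZH2, SUZ12, EED and RBBP4, which had no value here, so reads shared with them are uncertain.

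Reads were recovered from the FPKM: all 90408 values above 0 were whole reads at a relative tolerance of 1e-12, given totals of 34783047 (Jurkat), 28345951 (TALL104), 32149319 (EL4) and 25286728 (IVA12). The reads of a gene are lower bounds, since a factor shared with its length can be missed, so intervals may be too wide. Levels have exact Poisson and ratios exact conditional binomial intervals at 95%. They cover counting error only, as reads are not independent molecules. Symbols and positions came from GENCODE 44 (GRCh37) and M21 (GRCm38), matched by identifier for 31182 human and 27722 mouse genes.

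Ratios used FPKM + 1. A gene was called different above 1.5-fold among genes at 1 FPKM or more in either line. No count model was used and no p-value computed, because each group has 1 library. The members, lists, motif and alternatives were chosen with earlier results of these data known. Named are all members, up to 2 genes per list and direction with the largest ratios, EED, RBBP4, RBBP7 and the nearest gene to each member. Human E2F1, genes given as within 1.5-fold, and those of the marker, HOX and germline lists, were named after their values were seen. Of the genes this rule names, 2 are not reported here. Alternatives were pseudocounts of 0.1 and 0.01, no filter, 1 FPKM in both lines, 3 scalings, a 2-fold threshold and detection at 0.1 or 5 FPKM. The recovery was tested on simulated data. Python 3.11.15, NumPy 2.4.6, pandas 2.3.3, SciPy 1.17.1 and matplotlib 3.10.9 were used.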

Additional observations from a re-analysis of the deposited data

Results flagged for a closer look

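Each library held a few reads on the enzyme genes of the species that it does not come from, more than the 3 reads that a count of 0 allows. They numbered 28 in Jurkat and 16 in TALL104 over the 10 mouse genes, and 12 in EL4 and 40 in IVA12 over the 9 human genes. The highest such level was 0.0787 FPKM, in IVA12. Mouse Tet1 in EL4 and IVA12, at 0.0275 and 0.0269 FPKM, was below the highest levels that genes of the other species reached in Jurkat (0.0456 FPKM) and TALL104 (0.0428 FPKM), and no more can be read from it than that it was near absent.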

How the results depend on the processing

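No member changed direction under any alternative that was run. By construction, other pseudocounts, filters and thresholds cannot reverse a direction, so only the scalings could have done so. Scaling by the median ratio moved the log2 ratio of human TET3 from 0.39 to 0.29. It moved that of mouse Tet3 from -0.04 to -0.02. Of 45 human member values, 25 moved by less than their counting error and 20 moved by more. Of 50 mouse member values, 45 moved by less and 5 by more. Under other pseudocounts and scalings the 1.5-fold calls changed in 4 human cases, each of them TET2, and in 0 mouse cases. With a 2-fold threshold the human members called different fell to 5 from 7, without TET1 and SUZ12, and the mouse members numbered 2 as before. At the same threshold the partner genes called different fell to 18 from 32 in human and to 11 from 18 in mouse, and at 5 FPKM the members detected fell from 9 to 7 in both Jurkat and EL4, to 6 in IVA12 and to 5 in TALL104, by construction of the stricter limits. With scaling by the median ratio, 3787 human genes were higher in Jurkat and 3789 in TALL104, against 4177 and 3465 as deposited. No paired analysis was possible because each line has 1 library. The smallest count of a called member was 258 reads, in Dnmt3b of IVA12, and the spread between cultures is unknown.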

Other observations

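Genes that Polycomb complexes or DNA methylation are known to keep silent were listed after the data were seen, and their levels are given as values only. Of 39 HOX genes, classical Polycomb targets, 9 and 6 reached 1 FPKM in Jurkat and TALL104, and 14 and 4 did in EL4 and IVA12. In the human lines HOXB3, HOXB4 and HOXB7 reached 1 FPKM in both, and others in 1 line only. HOXA7 was at 7.64 FPKM in Jurkat and had 0 reads in TALL104, and HOXB9 was at 0.0319 FPKM in Jurkat and 11.0 FPKM in TALL104. Of the 12 HOX genes at 1 FPKM in either human line, 7 were higher in Jurkat, 5 were higher in TALL104 and 0 lay within 1.5-fold. Over all human genes compared, 34.2% were higher in Jurkat and 28.4% higher in TALL104. In mouse, 13 of 15 were higher in EL4, 0 were higher in IVA12 and 2 lay within 1.5-fold. Over all mouse genes compared, the shares were 23.8% and 26.5%. Some of the called HOX genes were close to 1 FPKM in EL4, such as Hoxd4 at 1.07 FPKM and Hoxb5 at 1.19 FPKM. The highest was Hoxd8, at 52.4 FPKM in EL4 and 2.22 FPKM in IVA12.

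Of 10 germline genes whose silence is known to depend on DNA methylation, 0 reached 1 FPKM in Jurkat and EL4 and 1 in each of the other lines. They were DDX4, at 2.91 FPKM in TALL104 and 0.00751 FPKM in Jurkat, and Brdt, at 2.60 FPKM in IVA12 and 0.365 FPKM in EL4. Neither methylation nor histone marks were measured in these libraries.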
